A study of Mus musculus with 16 samples.

Results

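The 10 antiviral effector genes of the type I interferon response, Ifit1, Ifit2, Ifit3, Isg15, Usp18, Cmpk2, Ddx58, Ifih1, Rsad2 and Oasl2, were followed across every glomerular library. They are 10 of the 25791 gene symbols in the deposited table, all 10 were found there, and all 10 passed the filter on low values, which kept the 13286 genes that reached 1 FPKM in 7 libraries or more. The genes were chosen by name as a family with these FPKM values already known, and 1 library was singled out as the one with the highest Ifit2, so the levels below are a description. FPKM count sequenced fragments relative to transcript length and to all mapped fragments of the library.

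The 7 mice called RAAS_blocked had received drugs against the renin-angiotensin-aldosterone system (RAAS). Lisinopril (20 mg/day), which inhibits angiotensin-converting enzyme, and losartan (30 mg/day), which blocks the main receptor of angiotensin II, were taken with the water from an age of 10 to 12 weeks up to 26 weeks. They were compared with 9 untreated mice. Every mouse of both groups was eNOS-/-//db/db, without endothelial nitric oxide synthase in any cell and with the diabetic mutation of the leptin receptor, so no mouse without diabetes is in the comparison, and the labels give no sex and no separate age for the untreated mice. RNA came from glomeruli of 1 kidney, isolated with iron and a magnet.

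Type I interferons are secreted proteins that bind a receptor of the subunits Ifnar1 and Ifnar2. The kinases Jak1 and Tyk2 then phosphorylate transcription factors, among them Stat2, which act together with Irf9 at interferon-stimulated response elements, short repeats of GAAA letters, in front of antiviral genes. The effectors block viral RNA, translation and nucleotide supply, and some of them, Ddx58 and Ifih1, also sense viral RNA and so feed the response that induces them. Interferon-gamma uses another receptor, yet induces part of the same genes.

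The stretches in front of the start sites are shown for the 4 effectors whose upstream bases hold that repeat, and for the near copy of Ifit3. They come from the promoter table of RefSeq (GRCm38.p6), run 5′ to 3′ on the strand of the gene, and leave out bases that the GENCODE M21 annotation places in an exon. Capitals mark each match of a 10-letter motif, GAAA followed by any 2 letters and a second GAAA, read on both strands so that it can appear as TTTC, any 2 letters and TTTC, with overlapping matches counted separately. Isg15 lies on the minus strand at chr4:156200819-156201068, Ifit1 on the plus strand at chr19:34640744-34640870, Ifit3 on the plus strand at chr19:34583279-34583528, Rsad2 on the minus strand at chr12:26456453-26456702, and I830012O16Rik, which RefSeq names Ifit3b, on the plus strand at chr19:34607707-34607956.
Isg15: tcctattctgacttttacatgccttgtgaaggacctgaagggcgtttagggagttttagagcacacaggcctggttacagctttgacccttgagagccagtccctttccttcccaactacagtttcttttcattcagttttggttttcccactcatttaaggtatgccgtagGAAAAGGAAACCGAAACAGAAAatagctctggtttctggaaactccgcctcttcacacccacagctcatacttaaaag
Ifit1: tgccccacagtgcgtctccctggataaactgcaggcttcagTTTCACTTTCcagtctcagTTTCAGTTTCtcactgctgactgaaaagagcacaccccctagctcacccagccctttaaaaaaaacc
Ifit3: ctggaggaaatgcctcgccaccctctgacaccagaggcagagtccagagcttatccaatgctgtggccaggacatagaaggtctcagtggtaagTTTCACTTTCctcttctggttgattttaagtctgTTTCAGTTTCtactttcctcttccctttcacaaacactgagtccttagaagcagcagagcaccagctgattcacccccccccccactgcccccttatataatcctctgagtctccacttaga
I830012O16Rik: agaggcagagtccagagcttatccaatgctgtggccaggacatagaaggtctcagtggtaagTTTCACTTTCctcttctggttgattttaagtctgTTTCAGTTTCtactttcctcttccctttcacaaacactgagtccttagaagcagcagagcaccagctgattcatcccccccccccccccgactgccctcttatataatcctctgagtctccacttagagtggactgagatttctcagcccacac
Rsad2: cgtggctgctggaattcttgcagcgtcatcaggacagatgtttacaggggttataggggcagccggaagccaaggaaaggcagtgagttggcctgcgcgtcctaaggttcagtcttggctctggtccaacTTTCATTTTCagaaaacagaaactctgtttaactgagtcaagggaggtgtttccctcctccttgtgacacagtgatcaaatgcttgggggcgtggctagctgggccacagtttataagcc

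Isg15 carried 3 overlapping matches, starting at -78, -72 and -66 from the start site. Ifit1 carried matches at -104 and -85, Ifit3 at -156 and -122, and Rsad2 a single match at -120. In the whole window of 300 bases, which runs on for 50 bases past the start, Ddx58 and Ifih1 each had 1 further match, at positions 2 and 32. Windows of Ifit2, Cmpk2 and Oasl2 held none, and Usp18 was not matched to the table. The motif was therefore present for 6 of 9 effectors (66.7%), against 3.99% of 27025 genes in the promoter table, and 2 or more matches were present for 3 of 9, against 0.266% of those genes. Among a wider list of other type I interferon effectors 20 of 43 promoters held it (46.5%). For a list of genes known to be induced by interferon-gamma, called the interferon-gamma type here, the count was 9 of 13 (69.2%). These counts describe letters in a window and say nothing of which factor was bound in these glomeruli.

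The main pattern was 1 mouse. RAAS_blocked replicate 6, the library with the highest Ifit2, was also the highest of 16 for the 9 other effectors. Across all tested genes that library was the highest for 12.6%. For 9 of the 10 effectors it was at least 2 times the next library, which was so for 1.12% of all tested genes (149 of 13286). Ifit2, by which the library was picked, is among these 9, so its place as highest was fixed beforehand. Relative to the median of the other 15 libraries, the effectors stood between 2.2 times (Ddx58) and 31.2 times (Ifit3) in it, with a median of 9.19, while the median of all tested genes was 1.0. Over the other 15 libraries the range of an effector ran from 1.45-fold (Ddx58) to 6.25-fold (Ifit3).

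**Figure D1:**
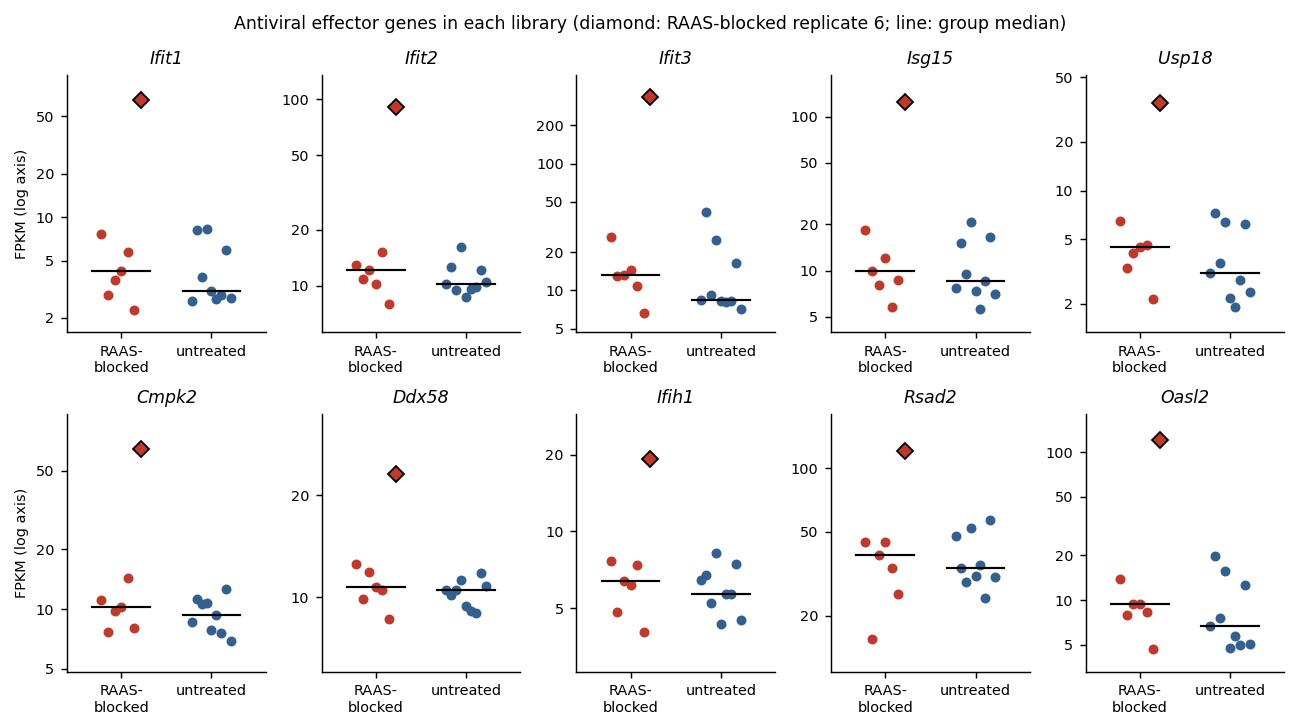
FPKM of each effector on a log axis, with 1 point per library, RAAS-blocked libraries at the left and untreated libraries at the right of each panel; the line is the group median and the diamond is RAAS-blocked replicate 6. The diamond lies above every other point in all 10 panels, from 23.1 FPKM against at most 12.5 FPKM for Ddx58 to 335 FPKM against at most 41.6 FPKM for Ifit3.

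The Ifit proteins bind viral RNA, Ifit1 through its cap structure, and stop its translation. Ifit1 was at 7.61, 2.89, 3.66, 4.26, 5.77, 2.27 and 65.2 FPKM in RAAS_blocked replicates 0 to 6. In untreated replicates 0 to 8 it was at 2.61, 8.10, 3.84, 8.29, 3.08, 2.70, 2.90, 5.88 and 2.74 FPKM. The 6 other treated mice lay inside the untreated range apart from replicate 5, which was below it, and Ifit1 of replicate 6 was 7.86 times the highest untreated value. Ifit2 had 12.9, 10.9, 12.2, 10.2, 15.2, 8.01 and 90.6 FPKM in RAAS_blocked replicates 0 to 6, against a low of 8.70, a median of 10.2 and a high of 16.1 FPKM in untreated mice. Outside replicate 6 its whole range was 2.01-fold, and treated replicate 5 alone lay below the untreated range.

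Ifit3, which binds Ifit1 and stabilises it in human cells, showed the greatest excess. It was at 26.3, 13.0, 13.2, 14.4, 10.7, 6.66 and 335 FPKM in RAAS_blocked replicates 0 to 6. Untreated mice had 8.43, 41.6, 9.19, 25.0, 8.18, 8.15, 8.28, 16.5 and 7.18 FPKM in replicates 0 to 8. Untreated replicates 1, 3 and 7 stood above the other untreated mice, and RAAS_blocked replicate 0 above the treated mice other than replicate 6. Of these 4 mice 3 were below 30 FPKM. The level is uncertain between copies, since 51.2% of the 50-base words in Ifit3 transcripts also occur in Ifit3b. That copy, listed as I830012O16Rik, was at 45.8 FPKM in RAAS_blocked replicate 6, against 1.82 to 7.49 FPKM in the other treated mice and 2.37 to 9.94 FPKM in untreated mice. Ifit2 and Ifit3 are neighbours on chromosome 19, where Ifit1 and Ifit3b also lie, and of their transcripts' words Ifit1 shared 7.06% with Ifit1bl2 and Ifit2 none with another gene.

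Isg15 is a ubiquitin-like protein that is attached to other proteins, and Usp18 takes it off again and also blocks signalling at the interferon receptor. Isg15 was at 18.4, 9.91, 8.05, 12.1, 5.82, 8.64 and 125 FPKM in RAAS_blocked replicates 0 to 6, against 5.67, 8.53 and 20.5 FPKM as the lowest, median and highest untreated values. Usp18 was at 6.54, 3.33, 4.15, 4.48, 4.60, 2.15 and 34.7 FPKM in the same order, against 1.91, 3.11 and 7.23 FPKM in untreated mice. For both, all treated libraries but replicate 6 lay within the untreated range. The effector and the enzyme that reverses it were thus high in the same mouse, by 14.5 times for Isg15 and 9.74 times for Usp18 over the median of the other 15 libraries.

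Cmpk2, a nucleotide kinase, and Rsad2 (viperin), which makes an altered nucleotide that ends viral RNA chains, are neighbours on chromosome 12, but their levels differed. Cmpk2 was at 11.1, 7.62, 9.75, 10.3, 14.4, 7.99 and 64.7 FPKM in RAAS_blocked replicates 0 to 6, against 6.88, 9.35 and 12.6 FPKM (lowest, median and highest) in untreated mice. Rsad2 was at 44.7, 15.5, 38.8, 44.6, 33.6, 25.2 and 121 FPKM in RAAS_blocked replicates 0 to 6. Untreated mice had 47.7, 33.7, 29.0, 52.3, 30.9, 35.0, 24.2, 57.2 and 30.6 FPKM in replicates 0 to 8. Rsad2 had the highest median of the effectors over the 15 other libraries, 33.7 FPKM, and its lowest value was in RAAS_blocked replicate 1. In replicate 6 it was only 3.59 times that median, and it was 2.12 times the second library, untreated replicate 7.

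Ddx58 (RIG-I) and Ifih1 (MDA5), the cytosolic sensors of viral RNA, were the 2 effectors with the lowest ratio of replicate 6 to the median of the other 15 libraries. Against the next highest library the lowest ratios were those of Ddx58 (1.85 times) and Rsad2 (2.12 times), with Ifih1 at 2.34 times. Ddx58 was at 12.5, 9.91, 11.9, 10.7, 10.5, 8.64 and 23.1 FPKM in RAAS_blocked replicates 0 to 6, against 9.0, 10.5 and 11.8 FPKM (lowest, median and highest) in untreated mice. Ifih1 was at 7.64, 4.82, 6.41, 6.19, 7.39, 4.03 and 19.3 FPKM in the same order, against 4.33, 5.69 and 8.25 FPKM in untreated mice. Oasl2 belongs to the oligoadenylate synthetase-like proteins and had 13.8, 7.91, 9.36, 9.34, 8.32, 4.69 and 121 FPKM in RAAS_blocked replicates 0 to 6, against 4.75, 6.63 and 19.9 FPKM in untreated mice. In replicate 6 the sensors were thus at 2.2 times (Ddx58) and 3.12 times (Ifih1) the median of the others, and Oasl2 was at 15.3 times. Oasl1, the neighbour of Oasl2 on chromosome 5 and known in mice to limit translation of Irf7, was at 6.03 FPKM there, against 0.819 to 2.11 FPKM in the other treated mice and 0.896 to 2.13 FPKM in untreated mice.

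The order of levels was not the same in replicate 6 as elsewhere. By the median of the other 15 libraries Rsad2 came first at 33.7 FPKM, followed by Ifit3 (10.7), Ifit2 (10.5), Ddx58 (10.5), Cmpk2 (9.75), Isg15 (8.64), Oasl2 (7.91), Ifih1 (6.19), Ifit1 (3.66) and Usp18 (3.56). From Ifit3 to Oasl2 the neighbours in this order differed by less than the range of either gene. In replicate 6 Ifit3 led at 335 FPKM, with Isg15 (125), Rsad2 (121) and Oasl2 (121) next, and Ddx58 and Ifih1 were the lowest pair.

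Below that mouse came a second tier, shared by the effectors and made up of mice of both groups. RAAS_blocked replicate 0 had a rank of 2 to 5 among the 16 for all 10 effectors, untreated replicates 3 and 7 for 9 each, and untreated replicate 1 for 7. The mean of log2(FPKM + 1) over the effectors was 3.87 in RAAS_blocked replicate 0, against 3.95, 3.90 and 3.78 in untreated replicates 3, 1 and 7, and 6.19 in RAAS_blocked replicate 6. RAAS_blocked replicate 5 was the other extreme, lowest of 16 for 6 effectors with a mean of 2.87. Some genes left this order. Rsad2 was also high in untreated replicate 0, at 47.7 FPKM, and Ifit2 and Cmpk2 were highest among treated mice, after replicate 6, in RAAS_blocked replicate 4.

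**Figure D2:**
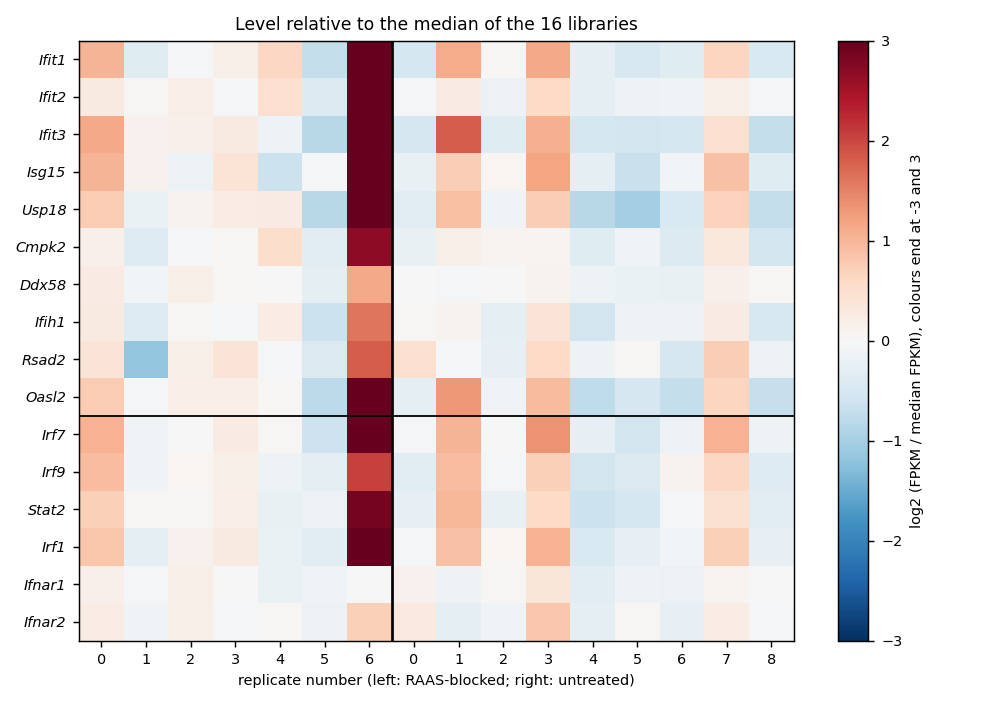
Log2 of FPKM over the median of 16 libraries, as colour, for the 10 effectors (above the line) and 6 genes of the pathway (below it), with RAAS-blocked replicates 0 to 6 at the left and untreated replicates 0 to 8 at the right; colours end at -3 and 3. RAAS-blocked replicate 6 is red in every row but Ifnar1, and paler red columns mark RAAS-blocked replicate 0 and untreated replicates 1, 3 and 7 in most rows.

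Among treated mice the spread of most effectors was wide, and it was smaller without replicate 6. The SD of log2(FPKM + 1) over the 7 treated mice was 1.82 for Ifit3, 1.47 for Ifit1, 1.45 for Oasl2 and 1.42 for Isg15, above that of at least 99% of tested genes, and 0.43 for Ddx58, at the 81.1th percentile. Without replicate 6 the same SDs were 0.59, 0.51, 0.45 and 0.52, between percentiles 85.6 (Oasl2) and 92.3 (Ifit3). Ddx58 was then at 0.17 (percentile 34.1), and Ifit2 was at percentile 67.5. In untreated mice the SDs were 0.84, 0.56, 0.70 and 0.58, and 0.12 for Ddx58. These 4 effectors, named for their SD among treated mice, lay there from the 89.0th (Ifit1) to the 95.8th (Ifit3) percentile. Usp18 and Rsad2 were at percentiles 89.5 and 79.9. Ifit2, Cmpk2 and Ifih1 were nearer the middle, at 59.3, 61.2 and 61.9, and Ddx58 was at 19.7.

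All 10 effectors had a higher mean of log2(FPKM + 1) in RAAS_blocked mice than in untreated mice, but no difference passed the test and each was smaller or turned without replicate 6. In limma fits over all 13286 genes, with Benjamini-Hochberg adjustment, 0 of 10 effectors were past an adjusted p of 0.05 (adjusted p 0.887 to 0.978) and 0 of 10 had an unadjusted p under 0.05, as 2.71% of tested genes did on the higher side. The background was as low, with 0.00753% of tested genes called higher and 0.00753% called lower. The log2 difference, RAAS_blocked minus untreated, was 0.74 ± 0.63 for Ifit3, 0.59 ± 0.51 for Oasl2, 0.54 ± 0.50 for Ifit1 and 0.53 ± 0.41 for Usp18 (SE, n = 7 and 9). It was 0.49 ± 0.48 for Isg15, 0.48 ± 0.36 for Ifit2, 0.46 ± 0.33 for Cmpk2, 0.23 ± 0.22 for Ifih1, 0.20 ± 0.14 for Ddx58 and 0.08 ± 0.31 for Rsad2. Their median was 0.48, against -0.02 over all tested genes, of which 44.7% lay above 0.

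Without RAAS_blocked replicate 6 the median difference of the effectors was 0.06, and 8 of 10 were still above 0, where 44.6% of all tested genes were. Usp18 was then the highest at 0.12 ± 0.26 (SE, n = 6 and 9), Cmpk2 was at 0.09 ± 0.14 and Ifit3 at 0.09 ± 0.37. Isg15 was at -0.02 ± 0.28 and Rsad2 at -0.19 ± 0.24, on the other side of 0. Adjusted p ran from 0.917 to 0.997 in limma on these 15 libraries. Since the library was picked by an effector's own level, these values describe what 1 mouse contributed and are no separate estimate of the drug effect. In no effector did the 7 treated mice lie wholly above the 9 untreated ones, a pattern seen in 0.0376% of tested genes. Cmpk2 had 2 treated mice and Ddx58 had 3 above the highest untreated one, and the other 8 effectors had 1.

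**Figure D3:**
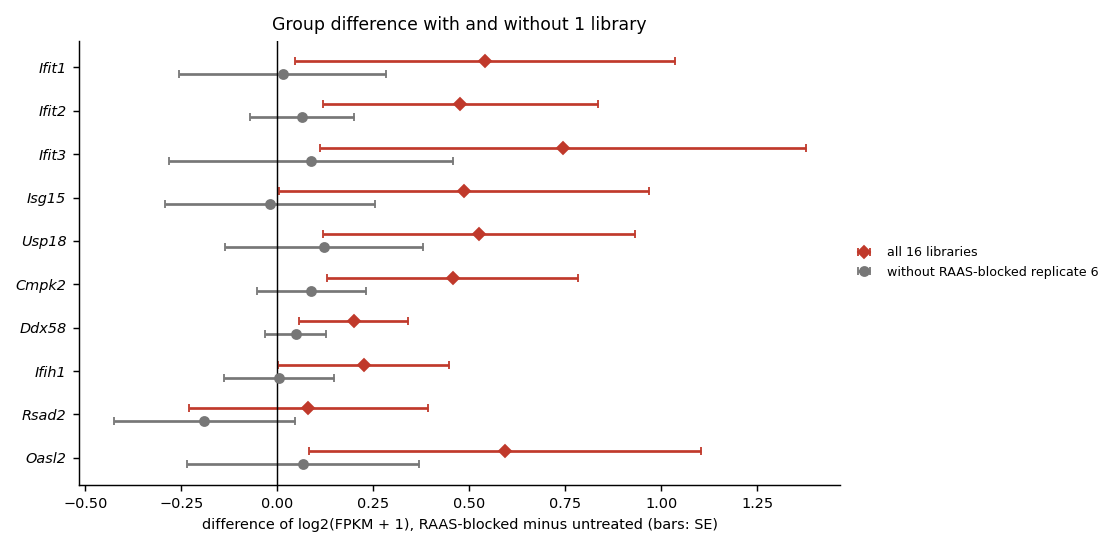
Difference of log2(FPKM + 1) between RAAS-blocked and untreated mice for each effector, with bars of 1 SE; diamonds use all 16 libraries and circles leave out RAAS-blocked replicate 6. Every diamond is right of 0, from 0.08 for Rsad2 to 0.74 for Ifit3, and every circle lies left of its diamond, between -0.19 for Rsad2 and 0.12 for Usp18.

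The ligands of the pathway were listed at 0 or at low values. A 0 in this table may also be a gene that was not quantified, since all 16 glomerular libraries have 0 for Podxl, which podocytes are known to express. Of 18 type I interferon symbols 16 were in the table, 10 of them listed at 0 in all libraries, and the highest value of any was 0.240 FPKM (Ifnz, RAAS_blocked replicate 1). Ifnb1 was above 0 only in RAAS_blocked replicate 3, at 0.0656 FPKM, and in replicate 6 only Ifnk (0.0618) and Ifnz (0.0634) were above 0. Ifng, the interferon-gamma gene, was also under 1 FPKM everywhere, with its highest value of 0.354 FPKM in RAAS_blocked replicate 6, 0.203 FPKM in RAAS_blocked replicate 0, and 0.182 and 0.0378 FPKM in untreated replicates 3 and 7. It was listed at 0 in the other 12 libraries. None of these symbols passed the filter on low values, and steps of a single fragment are large at such levels.

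In replicate 6 the receptor subunits were within the range of the other libraries, and Stat2, Irf9 and Irf7 were high with the effectors. Of the 10 tested receptor and JAK-STAT genes 4 were highest in that library, and their median was 1.31 times the median of the other 15. The ratios of the kinases were lower than those of Stat2 and Irf9, with Jak1 at 1.34 times, Jak2 at 1.26 times and Tyk2 at 0.926 times that median. Ifnar1 was at 14.9 FPKM in RAAS_blocked replicate 6, against 13.1 to 17.2 FPKM over all treated mice and 12.1 to 19.4 FPKM in untreated mice. Ifnar2 was at 87.8 FPKM there, against 47.2 to 62.4 FPKM in the 6 other treated mice and up to 93.8 FPKM in untreated mice. In the same library Stat2 was at 83.6 FPKM (7.40 times the median of the other 15), Irf9 at 73.3 FPKM (4.31 times) and Irf7, a factor that amplifies type I interferon production, at 101 FPKM (13.6 times). Irf1, which is induced strongly by interferon-gamma, was at 605 FPKM, against 29.7 to 65.6 FPKM in the other treated mice and 26.5 to 75.5 FPKM in untreated mice.

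By group, 9 of 10 tested receptor and JAK-STAT genes were above 0 in the log2 difference and 7 of 10 without replicate 6, and 0 were past the adjusted or the unadjusted threshold in limma. The lowest p in this list belonged to Jak1 (0.13 ± 0.09), Stat2 (0.46 ± 0.37), Jak2 (0.14 ± 0.12) and Irf9 (0.30 ± 0.31). Of 7 tested interferon regulatory factors 5 were above 0, and 3 without that library, with the lowest p for Irf3 (0.13 ± 0.07), Irf2 (0.17 ± 0.14), Irf5 (0.39 ± 0.41) and Irf1 (0.47 ± 0.51). Irf7 changed sign with it, at 0.36 with all libraries and at -0.13 without replicate 6. Of 14 tested nucleic acid sensors and adaptors 9 were above 0 with all libraries and 9 without replicate 6, and 8 genes were so in both fits. Values with all libraries include Ikbke (0.62 ± 0.40), Tmem173 (STING, 0.34 ± 0.25), Tlr3 (0.18 ± 0.15) and the adaptor Ticam1 (-0.17 ± 0.08). Of 12 tested genes that restrain sensing or signalling 9 were above 0 and 7 without replicate 6. They include Samhd1 (0.54 ± 0.36), the nuclease subunit Rnaseh2a (-0.10 ± 0.07) and the signalling inhibitor Socs3 (0.49 ± 0.30). Nlrx1 (-0.14 ± 0.09), which has been described to restrain antiviral signalling at mitochondria, is also among them. Of all tested genes 44.7% were above 0 with all libraries and 44.6% without replicate 6. In none of these lists was a gene past the adjusted threshold. The 1 sensor or adaptor with an unadjusted p under 0.05 was Ticam1, which was lower (limma, p 0.0489). Of all tested genes 2.71% had such a p on the higher side, and the share on the lower side was not counted.

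Other interferon-induced genes were also high in replicate 6, to unequal degrees. The 41 tested members of a list of other type I effectors stood at a median of 3.52 times the median of the other 15 libraries, and 35 of 41 were highest there. For 15 tested genes of the interferon-gamma type the median was 35.4 times, and 14 of 15 were highest there. Gbp2, a guanylate-binding protein, was at 1466 FPKM in replicate 6, against 5.73 to 22.4 FPKM in the other treated mice and 5.54 to 59.7 FPKM in untreated mice. Cxcl10, a chemokine for T cells that both interferon types induce, was at 986 FPKM in replicate 6, against 6.59 to 38.8 FPKM in the other treated mice and 3.40 to 93.7 FPKM in untreated mice. These examples are the extremes of their lists. Gbp2 had the highest ratio of the tested interferon-gamma type genes (166 times, lowest 1.73 times). Cxcl10 had the highest of the tested other type I effectors (71.8 times, lowest 0.963 times). Cxcl9, a related chemokine that depends more on interferon-gamma, was at 157 FPKM in replicate 6 and at most 1.82 FPKM in any other library. Thus the median of the effectors, 9.19 times, lay between those of the wider type I list and the interferon-gamma type list in that mouse. Since both interferons induce part of the same genes, this order depends on how genes were placed in the lists.

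**Figure D4:**
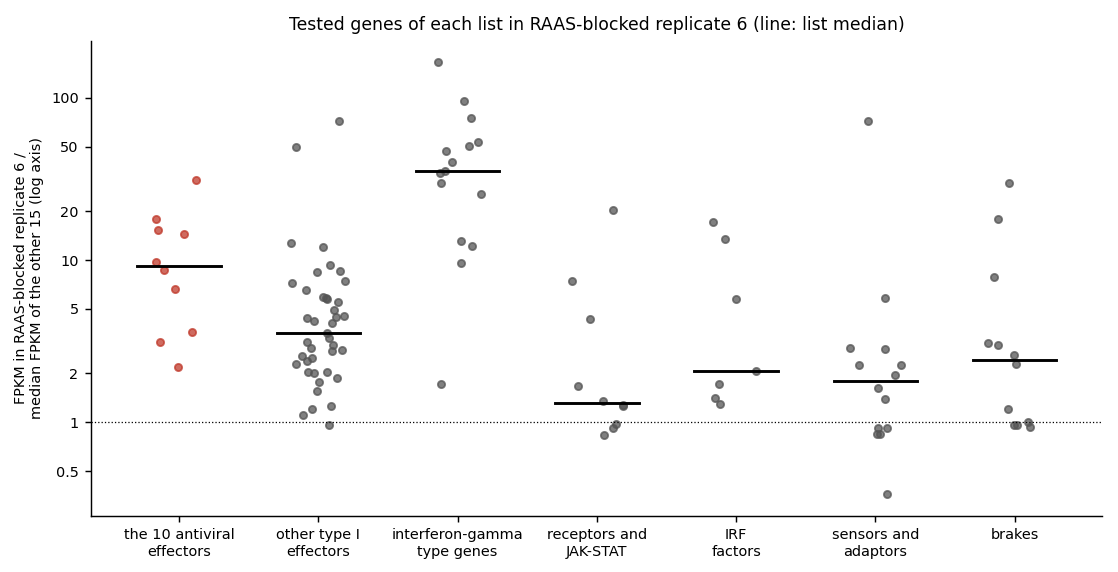
FPKM in RAAS-blocked replicate 6 over the median FPKM of the other 15 libraries (log axis), with 1 point per tested gene in each list and a line at the list's median; the dotted line marks a ratio of 1. The medians are 9.19 for the 10 effectors, 3.52 for the other type I effectors and 35.4 for the interferon-gamma type genes.

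The second tier is given by list. The interferon-gamma type genes stood at a median of 2.82 times their 16-library median in RAAS_blocked replicate 0, and at 3.71, 3.27 and 2.36 times in untreated replicates 1, 3 and 7. The effectors stood at 1.5 times in RAAS_blocked replicate 0 and at 1.42, 1.59 and 1.47 times in untreated replicates 1, 3 and 7. The other type I effectors stood at 1.39 times in RAAS_blocked replicate 0 and at 0.985, 1.46 and 1.36 times in untreated replicates 1, 3 and 7, so the median of that list was not above 1 in untreated replicate 1. RAAS_blocked replicate 3, where the effectors were at 1.14 times, had interferon-gamma type genes at 2.03 times. By group, 36 of 41 other type I effectors were above 0 in the log2 difference with all libraries and 19 of 41 without replicate 6, with medians of 0.25 and -0.02. The counts were 15 of 15 and 5 of 15 for the interferon-gamma type genes, with medians of 0.55 and -0.12. For the effectors they were 10 of 10 and 8 of 10, with medians of 0.48 and 0.06, and 44.6% of all tested genes were above 0 without that library. The genes of lowest p were Ifitm1 (0.80 ± 0.44), Ifi204 (0.60 ± 0.36), Ifi203 (0.40 ± 0.22) and Pnpt1 (0.17 ± 0.09) among the type I effectors, and Iigp1 (0.98 ± 0.69), Gbp5 (0.89 ± 0.64), Gbp3 (0.72 ± 0.73) and the class II transactivator Ciita (0.46 ± 0.42) among the interferon-gamma type genes, all short of the adjusted threshold.

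Of the 12 genes most like the effectors across mice, 7 were in the interferon pathway lists. Likeness was the Pearson r between log2(FPKM + 1) of a gene and the mean of the 10 standardized effectors, both centred on the group means, as a description over 16 libraries that share replicate 6. The 12 highest were Irf1 (0.987), Gbp5, Dtx3l, Ube2l6, Parp14, Irf7, Gbp6, Trim12, Psmb10, F830016B08Rik, Parp9 and Ftsjd2 (0.977). Dtx3l and Parp9 form a ubiquitin ligase complex, Ube2l6 is the conjugating enzyme for Isg15, and Psmb10 is a subunit of the immunoproteasome. Of the 30 highest, 15 were in the pathway lists, which hold 0.746% of the 13276 genes ranked. Over the 15 libraries without replicate 6 the same measure put Rtp4 (0.964), Irf7 (0.956), Dtx3l (0.951) and B2m (0.939) first, 8 of the 12 highest were shared with the first ranking, and 16 of the 30 highest were in the lists. The effectors' own r with their mean without that library ran from 0.705 (Rsad2) to 0.969 (Usp18).

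Not every interferon-induced gene was highest in RAAS_blocked replicate 6. Of the other type I effectors, the lowest likeness over 16 libraries belonged to Oas1c (0.091), Slfn5 (0.250), Tor3a (0.448) and Ifi27l2a (0.448). Without replicate 6 their r was 0.323, 0.342, 0.273 and 0.656. Oas1c was at 1.77 FPKM in RAAS_blocked replicate 6, against 1.54 to 2.11 FPKM over all treated mice and 1.39 to 2.57 FPKM in untreated mice. Slfn5 was at 76.7 FPKM in that library, against 52.8 to 97.8 FPKM over all treated mice and 39.0 to 95.1 FPKM in untreated mice. Tor3a was at 26.5 FPKM, 1.25 times the median of the others. Ifi27l2a was at 6.54 FPKM there, and its highest treated value was 18.8 FPKM in RAAS_blocked replicate 0. In untreated replicates 3, 7 and 1, also of the second tier, Ifi27l2a was at 32.1, 9.06 and 1.90 FPKM.

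These are bulk RNA values, in which more cells of a type and more RNA per cell cannot be told apart, so marker lists are given beside the effectors. In RAAS_blocked replicate 6 the summed FPKM of 5 leukocyte markers was 209, rank 5 of 16, against 86.7 to 376 over treated and 49.8 to 511 over untreated mice. The 9 macrophage and monocyte markers summed to 515 (rank 6), against 281 to 1107 over treated and 134 to 2489 over untreated mice. The 8 T and NK cell markers summed to 3.03 (rank 9), against 0.901 to 5.95 over treated and 1.96 to 11.01 over untreated mice. Of these 8 markers 0 passed the filter on low values. The 5 neutrophil markers summed to 1046 (rank 2), against 64.5 to 2324 over treated and 26.4 to 844 over untreated mice. Untreated replicate 3 held the most leukocyte and macrophage RNA, with mean log2(FPKM + 1) of 6.51 and 7.0. Untreated replicate 1 held the least, at 3.33 and 3.12. The effector means of these mice were 3.95 and 3.90. The rest of the second tier, RAAS_blocked replicate 0 and untreated replicate 7, had leukocyte means of 6.04 and 5.05, with effector means of 3.87 and 3.78. Untreated replicate 1 was thus the exception in that tier. Outside it, RAAS_blocked replicates 2 and 3 and untreated replicate 0 had leukocyte means of 5.32, 5.34 and 5.13. The 6 markers of plasmacytoid dendritic cells, cells known as a strong source of type I interferon, summed to 1.83 FPKM in replicate 6 (rank 10). The 4 B cell markers summed to 1.52 FPKM (rank 12). In each of these lists only 1 marker passed the filter on low values. The plasmacytoid one, Klk1b27, was at 0.280 FPKM in replicate 6 and highest in RAAS_blocked replicate 1 (2.12 FPKM). Siglech was at 0.260 FPKM in replicate 6 and highest in untreated replicate 3 (3.38 FPKM). Steps of a single fragment are large at such levels, so the ranks of these lists and of the T and NK cell list are weak measures of cell content. No leukocyte, macrophage, T or NK, B cell or neutrophil marker was listed at 0 in replicate 6.

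The sums of kidney cell markers were at or near the ends of their ranges in replicate 6, though single markers such as Pecam1 and Cldn16 were not. Pecam1 was at 248 FPKM there, against 207 to 349 FPKM over treated mice, and Cldn16 at 5.73 FPKM, against 2.71 to 17.6 FPKM. The podocyte markers summed to 3753 FPKM (rank 2 of 16), against 1162 to 3753 over treated and 1640 to 3782 over untreated mice, with Podxl listed at 0 in every library. The 6 endothelial markers summed to 1146 FPKM, the lowest of 16, and the 5 mesangial markers to 136 FPKM, the second lowest. Proximal tubule markers summed to 7.50 FPKM, against up to 517 FPKM in treated and 15.4 to 622 FPKM in untreated mice. The sum of thick ascending limb markers was also the lowest there, and their mean log2(FPKM + 1) had rank 15 of 16. The part of any of these lists in the effector levels was not tested.

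**Figure D5:**
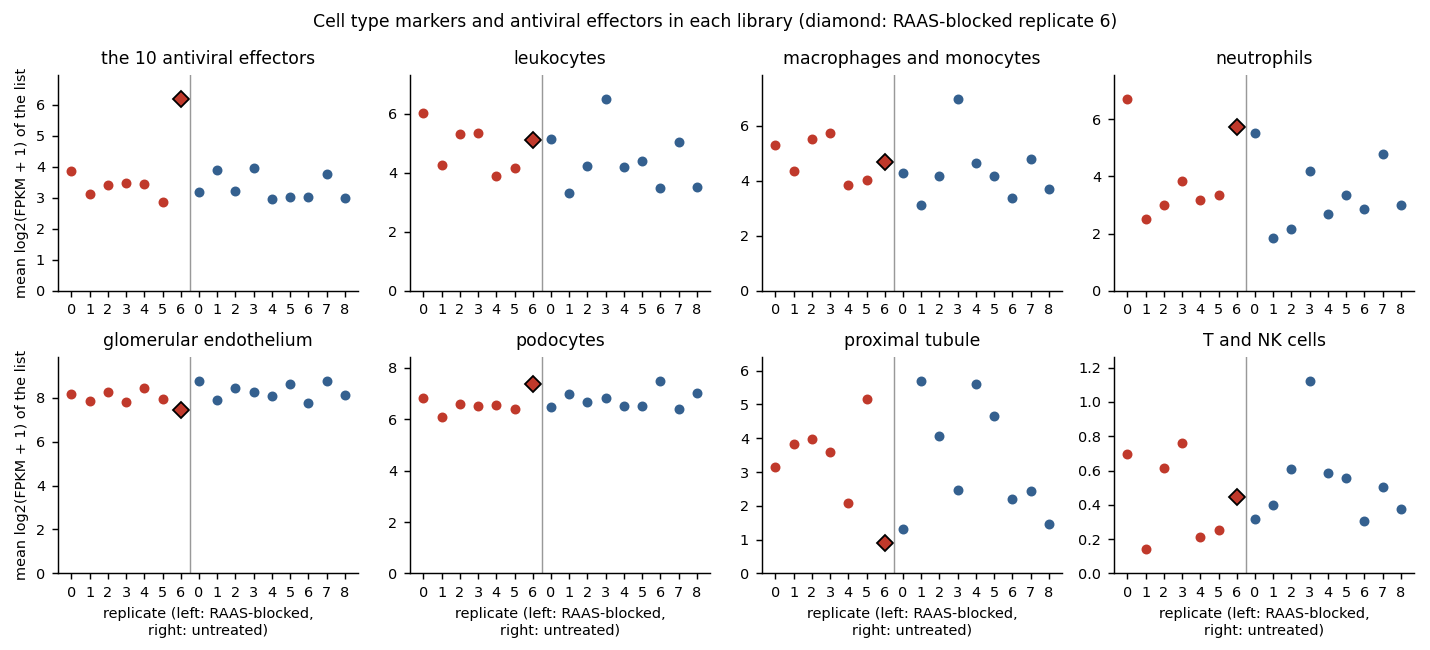
Mean log2(FPKM + 1) of the 10 effectors and of 7 marker lists in each library, RAAS-blocked replicates 0 to 6 at the left of the line and untreated replicates 0 to 8 at the right; the diamond is RAAS-blocked replicate 6. It stands apart at 6.19 for the effectors, has rank 6 for leukocyte markers, and is the lowest for endothelial and proximal tubule markers.

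Across the series, absolute depth is unknown because the table holds no counts. Steps in the lowest values put 15 libraries at 0.986 to 1.66 times the depth of untreated replicate 0, with RAAS_blocked replicate 6 at 1.48 times. RAAS_blocked replicate 4 had 16919 symbols above 0 and the others 17993 to 18613. Pairwise correlations over tested genes ran from 0.886 to 0.984, those of replicate 6 from 0.887 to 0.954, and no pair was identical. The library identifiers fall into 2 unbroken runs, 1 for each group, so handling that followed those runs cannot be told apart from the drugs. Rn18s, the symbol of a ribosomal RNA, was listed at 2214 to 9925 FPKM in treated mice and at 0 in all untreated ones, and it was the 1 gene called higher. Nos3 was at 15.4 to 36.7 FPKM in treated and 12.1 to 43.8 FPKM in untreated mice, and a value over the whole gene does not test for a deletion in part of it.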

How the data were processed

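The deposited table gives 1 FPKM value per gene symbol and library, made by the authors. Of tools, the submitters' processing notes list Cuffdiff 2.2.1, Cufflinks, TopHat2 2.0.8, FastQC and CASAVA 1.8.2, without roles. No build, annotation or strand setting is stated (not given in the sources used here), and reads of overlapping or near-identical genes cannot be told apart. The libraries were made with a TruSeq mRNA kit from RNA of quality 8 or more, per the labels' protocols. Nothing in the labels ties each library to its own mouse, and p-values then measure only the spread between these libraries, taken here as mice.

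Values were analysed as log2(FPKM + 1), which understates changes of low genes. The 13286 genes that reached 1 FPKM in 7 libraries or more were fitted with limma 3.58.1 in R 4.3.3, with group as the only term, a mean-variance trend, robust moderation and Benjamini-Hochberg adjustment at 0.05. The fit was tested on simulated data. Alternatives changed the pseudocount, low-value filter, library scaling (upper quartile or quantile), library weights, moderation of the variance, and blocking by replicate number, or left out each library.

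The effectors, pathway lists and marker lists were chosen with earlier results of these data known. Named genes were the 10 effectors, up to 4 genes of lowest p per pathway list, the 12 genes most like the effectors, the 4 least like among other type I effectors, the ligands, receptors, Stat2, Irf7, Irf9, Ifit3b and Oasl1, and 1 further gene of this rule is not reported here. Gbp2, Cxcl9, Cxcl10, Socs1, Rtp4, B2m and Tyk2 were named after their values were seen. Relative depth came from genes under 0.03 FPKM. Of their ratios to untreated replicate 0, 68.6% to 82.4% lay within 0.05 (log2) of a common step, or of 2 times or 0.5 times that step. Promoter windows are those of RefSeq on GRCm38.p6, and shared 50-base words were counted over GENCODE M21 transcripts.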

Additional observations from a re-analysis of the deposited data

Results flagged for a closer look

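The effectors and the other genes named for the pathway or for likeness, where they passed the low-value filter, were looked at in both groups for a library that stands apart, by the gap between the highest or lowest library and its neighbour on the log2(FPKM + 1) scale, as a ratio to the range of the group. Ratios above 0.568 among 7 RAAS_blocked libraries or above 0.493 among 9 untreated libraries are listed. Of 116 gene and group pairs 35 were above. Chance flags about 1 in 20 groups, a figure that is no measure here, since many of the genes were named for their level in or likeness over libraries that include RAAS_blocked replicate 6. In 29 of the 35 the library was RAAS_blocked replicate 6, as the highest.

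Among the effectors, RAAS_blocked replicate 6 gave a ratio of 0.747 for Ifit2, 0.714 for Cmpk2, 0.688 for Oasl2, 0.678 for Ifit1, 0.664 for Ifit3, 0.641 for Isg15, 0.641 for Usp18, 0.631 for Ddx58 and 0.611 for Ifih1. Rsad2 was the effector that stayed below the limit. The copy I830012O16Rik had 0.608 and Oasl1 had 0.602.

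In the same library the signalling genes and factors had ratios of 0.74 for Irf1, 0.704 for Stat2 and 0.637 for Irf7, and the inhibitory genes had 0.869 for Socs1 and 0.687 for Samhd1. Of the interferon-gamma type genes and chemokines, Gbp2 had 0.768, Gbp6 had 0.742, Gbp5 had 0.717, Cxcl10 had 0.659 and Gbp3 had 0.625. Genes most like the effectors had 0.792 for Dtx3l, 0.755 for Parp9, 0.715 for Parp14, 0.711 for Psmb10, 0.673 for Ube2l6, 0.66 for F830016B08Rik, 0.641 for Trim12 and 0.634 for Ftsjd2.

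The other 6 flags lay elsewhere. Untreated replicate 3, which had the highest leukocyte and macrophage marker levels, stood above the other untreated libraries for Ikbke (0.648), Ciita (0.55), Cxcl10 (0.544), Ifi204 (0.527) and Irf2 (0.51). RAAS_blocked replicate 4 stood below the other treated libraries for Nlrx1 (0.59). Whether marker levels bear on these values was not tested.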

How the results depend on the processing

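Leaving out 1 library at a time (16 fits), the 10 effectors gave 8 to 10 log2 differences above 0. Isg15 ran from -0.019 to 0.68 and Rsad2 from -0.19 to 0.29, both below 0 without RAAS_blocked replicate 6. Other named genes that changed sign were B2m (-0.064 to 0.29), Ftsjd2 (-0.035 to 0.12), Gbp2 (-0.19 to 1.10), Gbp6 (-0.063 to 0.83), Ifi27l2a (-0.59 to 0.077), Ifnar1 (-0.022 to 0.058), Ifnar2 (-0.026 to 0.17), Irf1 (-0.093 to 0.62), Irf7 (-0.13 to 0.55), Oas1c (-0.067 to 0.0055), Oasl1 (-0.066 to 0.26), Parp9 (-0.11 to 0.44), Psmb10 (-0.21 to 0.30), Rtp4 (-0.20 to 0.54), Socs1 (-0.13 to 0.67) and Ube2l6 (-0.12 to 0.46). Counts above 0 ran from 19 to 38 for other type I effectors, 5 to 15 for interferon-gamma type genes and 7 to 9 for receptor and JAK-STAT genes. The number of genes past the adjusted threshold ran from 1 to 3 (higher) and 0 to 3 (lower).

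Of 80 effector values under the other settings 79 kept their sign, and no effector passed an adjusted p of 0.05 in limma under any setting (lowest 0.771). Array weights turned Rsad2 (-0.076), Oas1c (0.0092), Oasl1 (-0.095), Psmb10 (-0.0020) and Slfn5 (-0.079), with 5 genes called higher and 6 lower. Without a filter on low values 2 genes were called higher. Quantile normalization turned B2m (-0.015). Upper-quartile scaling, quantile normalization and an untrended, non-robust variance each gave 0 called lower. The cause was not tested. The replicate block, by a number shared between groups, also gave 0 called lower; deviations of 4 of 7 same-numbered pairs correlated above 0.1 and 1 RAAS_blocked library correlated best with its own number, so the numbers are not treated as pairs. List counts under these settings were added after seeing the data. Without RAAS_blocked replicate 6 the r of the 12 genes most like the effectors ran from 0.897 to 0.956. Depth in fragments is unknown, which limits values under 1 FPKM, the ligands among them.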
